A study of Saccharomyces cerevisiae with 11 samples.

Results

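GD2 is 1 of 3 Saccharomyces cerevisiae strains that share the genotype label GD, and its transcript levels were set against those of GD1 and GD3. The labels give no more of the genotype than the letters GD, and each strain is represented by 1 library. The 3 libraries belong to a series of 11, whose title concerns clustered essential genes and whose design text refers to short tags in the sequence that tell synthetic genes from wild-type ones. GD2, GD1 and GD3 stand in 1 table with 3 libraries of genotype SD (SD1, SD2 and SD3) and 1 wild-type control. Growth medium, culture density, ploidy and the parent strain are not given in the sources used here, nor is it stated whether GD1, GD2 and GD3 were separate clones. Cells were frozen on dry ice and powdered under liquid nitrogen, and polyadenylated RNA was captured on oligo-dT beads. The table holds 5936 numbered rows, of which the 5899 with a mean of 1 or more FPKM (sequenced fragments per kilobase of transcript, scaled to library size) over the 7 libraries were used. The lowest row inside that limit averaged 1.02 FPKM and the highest row outside it 0.969 FPKM.

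Budding yeast adjusts a few large groups of genes together when nutrients change. Genes of phospholipid synthesis are driven by the paired factors Ino2 and Ino4 and held down by Opi1 when inositol and choline are plentiful. Genes of amino acid synthesis are driven by Gcn4 when amino acids are scarce, and sulfur genes by Met4. Ribosomal protein genes and glycolytic genes are among the most strongly expressed in growing cells, and their share of the RNA varies with growth rate and carbon source. The nuclear genome of the species is carried on chromosomes I to XVI.

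The deposited FPKM were divided by a median-of-ratios factor per library, and all levels below are scaled FPKM. The factors were 1.02 for GD2, 0.977 for GD1 and 0.863 for GD3, 0.954 to 1.01 for the SD libraries and 1.27 for the control. Sequencing depth is unknown, because the low values did not resolve into whole fragments, so no counting interval can be given. In RNA from whole cultures, fewer cells of a kind and less RNA per cell cannot be told apart. All 7 libraries had the markers of alpha cells: MF(ALPHA)1, the main alpha-factor gene, stood at 5239 scaled FPKM in GD2, 8769 in GD1, 7832 in GD3, 2250 to 4113 in SD and 5191 in the control. MFA1, of a-factor, stood at 21.8 scaled FPKM in GD2, 14.4 in GD1, 11.8 in GD3, 12.7 to 22.8 in SD and 80.3 in the control.

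GD2 stood apart from both other GD libraries. Beyond 2-fold on the log2(scaled FPKM + 1) scale were 393 rows between GD2 and GD1 (222 higher and 171 lower in GD2), 834 between GD2 and GD3 (397 higher and 437 lower in GD2) and 175 between GD1 and GD3. Pairs of SD libraries gave 33 to 148 such rows. Spearman's rho across rows, which are not independent replicates, was 0.947 for GD2 and GD1, 0.916 for GD2 and GD3 and 0.975 for GD1 and GD3. By any amount, GD2 lay below both GD1 and GD3 in 2594 of 5899 rows (44.0%) and above both in 2249 (38.1%). GD2 lay at least 2-fold above both GD1 and GD3 in 179 of 5899 rows (3.03%) and at least 2-fold below both in 123 (2.09%). These last counts describe 3 libraries and carry no test.

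**Figure D1:**
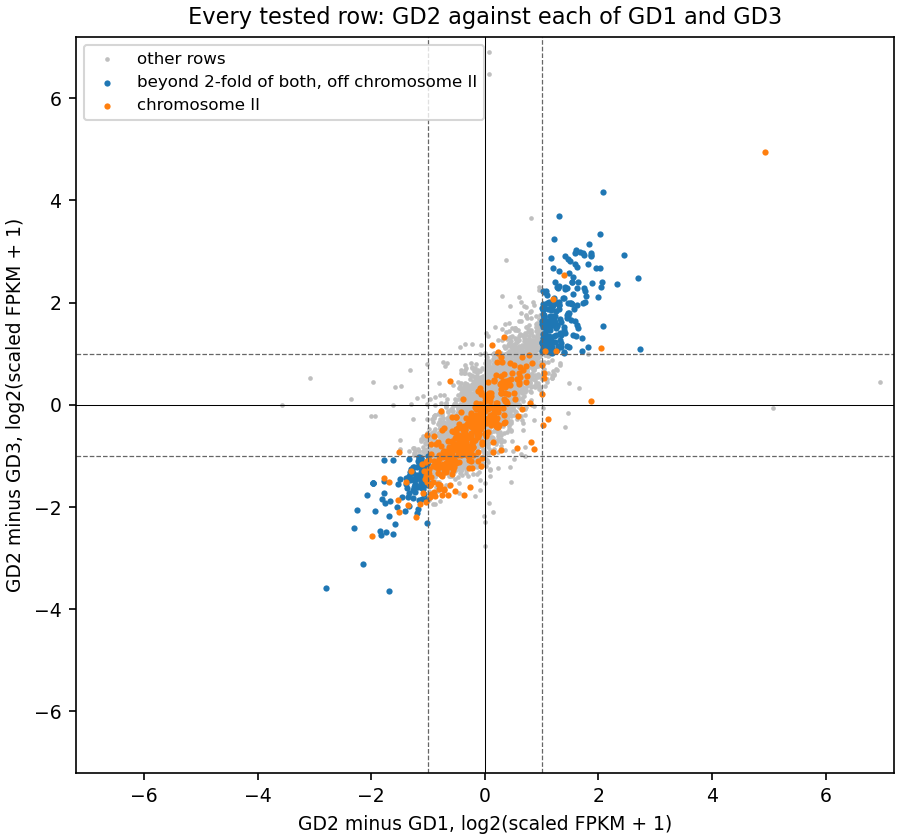
Difference of GD2 from GD1 (horizontal) and from GD3 (vertical) on the log2(scaled FPKM + 1) scale, 1 point for each of 5899 rows. Dashed lines mark 2-fold, and the 302 rows beyond it against both libraries lie in the upper right (179) and lower left (123) corners. Chromosome II genes (orange) lie mostly to the lower left.

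A limma fit over all 7 libraries, with GD2 as a lone library assumed to vary like the others, compared GD2 with the mean of GD1 and GD3. It called 204 rows higher (3.46%) and 258 lower (4.37%) at a Benjamini-Hochberg adjusted p under 0.05. With FPKM as deposited, without the scaling factors, the split was 199 higher and 121 lower. That choice moved the median of all rows to 0.12, against -0.03 with scaling. Every called row had a limma adjusted p between 0.0408 and the threshold, and 1939 of the 5899 rows had an unadjusted p under 0.05. The calls therefore sat just inside the threshold. Limma called 0 rows without GD3 (1585 at an unadjusted p under 0.05), 0 without SD1 (1618), 0 without SD3 (1561) and only ACC1 without SD2 (1966), a row named here for that reason. Without GD1 it called 450 higher and 582 lower. Because each strain has 1 library, the p-values measure only the spread between these libraries. In 389 of the 462 called rows (84.2%) GD1 lay between GD2 and GD3, and in 68.5% of the 4843 rows in which GD2 was above both or below both. The second share includes the called rows, and neither carries a test.

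Chromosome II was the chromosome on which GD2 differed most from GD1 and GD3 as a whole. Over its 409 genes the median level in GD2 was 0.844-fold that in GD1 (log2 difference -0.25) and 0.689-fold that in GD3 (-0.54). On the other 15 nuclear chromosomes the medians ran from -0.06 to 0.09 against GD1 and from -0.08 to 0.07 against GD3. Chromosome III entered these ranges with only 15 genes, and 160 tested rows had no matched chromosome. GD1 also lay below GD3 on chromosome II, by -0.29, where the other chromosomes gave -0.05 to 0.05. GD2 was below both libraries in 277 chromosome II genes (67.7%), compared with 27.2% to 47.2% of the genes on each other chromosome. In 244 of the 409 genes the order was GD2 below GD1 below GD3. The fit called 44 chromosome II genes lower (10.8%, against at most 6.28% on any other chromosome) and 3 higher.

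**Figure D2:**
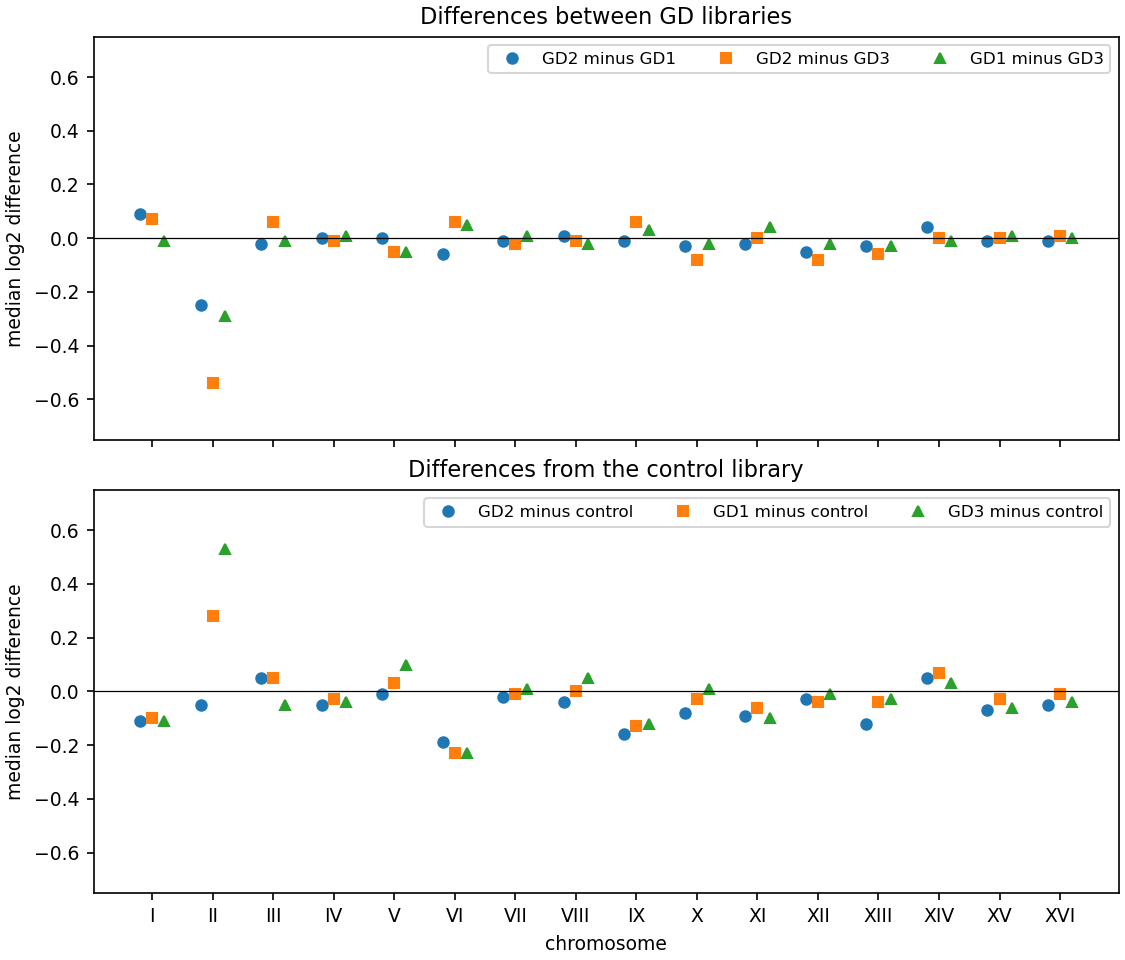
Median log2 difference over the genes of each nuclear chromosome. Upper panel: GD2 minus GD1, GD2 minus GD3 and GD1 minus GD3; lower panel: GD2, GD1 and GD3 minus the control. Chromosome II stands apart, at -0.25, -0.54 and -0.29 above, and at -0.05 for GD2, 0.28 for GD1 and 0.53 for GD3 below.

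On chromosome II GD2 lay close to the control library, and GD1 and GD3 lay above it. Its median difference from the control on this chromosome was -0.05, compared with 0.28 for GD1 and 0.53 for GD3, while SD1, SD2 and SD3 gave 0.07 to 0.09. Against the mean of the SD libraries the medians were 0.04 for GD2, 0.17 for GD1 and 0.42 for GD3. These comparisons share the control or the SD libraries, and each is a description over genes of single libraries.

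The shift ran along the whole chromosome. The median for GD2 minus the mean of GD1 and GD3 was -0.43 over 108 genes of the left arm and -0.37 over 301 genes of the right arm. When the genes were divided into 10 consecutive bins of 40 or 41, the bin medians lay between -0.36 and -0.10 against GD1 and between -0.82 and -0.30 against GD3, so each bin was below both. Strongly expressed genes differed more. When chromosome II genes were divided into 3 equal classes by their mean over the GD libraries, in the highest class GD2 was at -0.39 against GD1 and -0.83 against GD3, and in the lowest class at -0.17 and -0.40. Genes of the same levels on other chromosomes gave -0.17 and -0.36 in the highest class and 0.05 and 0.10 in the lowest. Chromosome II was thus below the rest of the genome in every class of level.

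**Figure D3:**
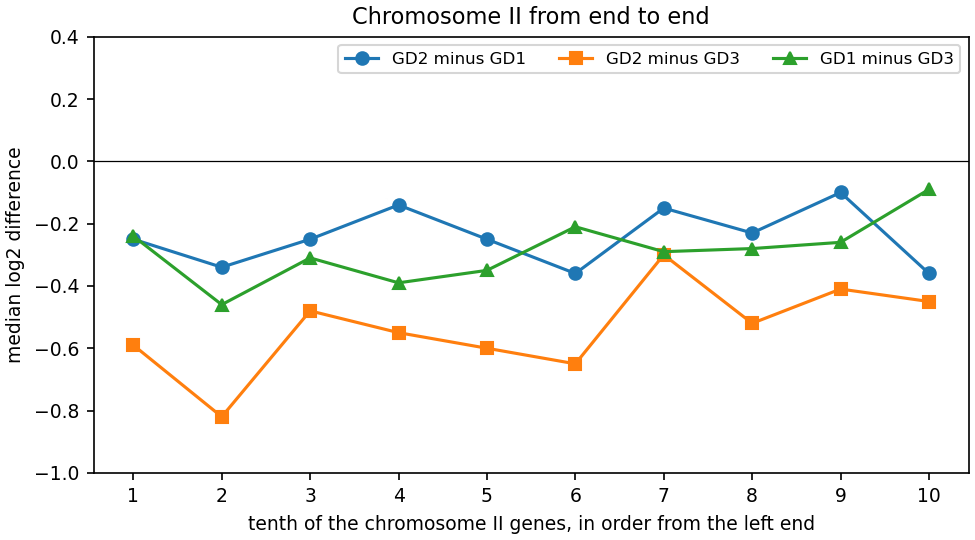
Median log2 difference in 10 consecutive bins of 40 or 41 chromosome II genes, from the left to the right end, for GD2 minus GD1, GD2 minus GD3 and GD1 minus GD3. All 30 medians are below 0, and GD2 minus GD3 reaches -0.82 in the second bin.

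The lowest p on chromosome II belonged to YBL005W-A, a row for the gag frame of a Ty1 retrotransposon (chr II 221330 to 222652 in R64). It stood at 29.7 scaled FPKM in GD2, was listed at 0 in GD1, GD3, SD2, SD3 and the control, and stood at 0.178 in SD1 (limma adjusted p = 0.0408). Ty1 elements exist in many nearly identical copies and this row overlaps YBL005W-B, so which element the fragments came from is uncertain. EHT1, an acyltransferase that makes medium-chain fatty acid ethyl esters (584807 to 586162), stood at 69.6 scaled FPKM in GD2, 201 in GD1 and 257 in GD3, against 115 to 129 in SD and 125 in the control. Its log2 difference from the mean of GD1 and GD3 was -1.70 ± 0.20 (SE; limma adjusted p = 0.0408). YSA1, a nucleotide sugar diphosphatase (461178 to 461873), stood at 264 in GD2, 692 in GD1 and 763 in GD3. YBL086C, of unassigned function, stood at 32.3, with 60.5 in GD1 and 69.8 in GD3. For each of the 3 genes GD2 was the lowest of the 7 libraries. Among the rest of the genes called lower were CDC28, the main cyclin-dependent kinase (42.6 in GD2, 85.0 in GD1 and 109 in GD3), PET9, the major mitochondrial ADP/ATP carrier (258, with 661 in GD1 and 1010 in GD3), and PRX1, the mitochondrial peroxiredoxin (108, with 307 in GD1 and 463 in GD3). Against this direction, YBL005W-A, RIB1 and THI2 were the 3 genes called higher. RIB1, of riboflavin synthesis, stood at 142 in GD2, with 67.5 in GD1 and 67.4 in GD3.

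Phospholipid, inositol and fatty acid synthesis was the function with the largest share of calls, and 23 of its 25 genes lie on other chromosomes. Of the 25 genes, 12 were called lower (48.0%, against 4.37% of all rows), none higher and 13 were not called. The same number, 12, was more than 2-fold below both GD1 and GD3, against 2.09% of all rows. The list median was -0.81 against GD1 and -0.86 against GD3, compared with -0.02 and -0.05 over all rows. This list was chosen with earlier results of these data known, so its count is a description. The upstream regions of 5 called genes are shown because they cover the steps from inositol uptake to phosphatidylcholine. They run over the first 200 of the 300 bases before the start codon, read from the RefSeq R64 genome in the direction of the gene: ITR1 at chrIV:1445568-1445767 (minus strand), CHO1 at chrV:208575-208774 (minus strand), PSD1 at chrXIV:317772-317971 (minus strand), CHO2 at chrVII:802140-802339 (plus strand) and OPI3 at chrX:573036-573235 (minus strand). Capitals mark CATGTG or its reverse complement CACATG, the core of the element bound by Ino2 and Ino4.
ITR1: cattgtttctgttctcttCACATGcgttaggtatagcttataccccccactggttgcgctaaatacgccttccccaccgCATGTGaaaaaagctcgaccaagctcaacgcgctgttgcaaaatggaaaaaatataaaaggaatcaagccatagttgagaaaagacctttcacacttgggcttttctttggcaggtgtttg
CHO1: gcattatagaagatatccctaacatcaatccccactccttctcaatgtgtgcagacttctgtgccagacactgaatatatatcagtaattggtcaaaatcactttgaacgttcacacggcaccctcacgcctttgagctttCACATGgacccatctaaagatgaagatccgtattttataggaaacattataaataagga
PSD1: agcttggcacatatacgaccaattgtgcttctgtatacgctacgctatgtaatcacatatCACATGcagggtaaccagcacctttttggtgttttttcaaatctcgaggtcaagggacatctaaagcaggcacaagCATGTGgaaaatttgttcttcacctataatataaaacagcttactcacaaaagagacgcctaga
CHO2: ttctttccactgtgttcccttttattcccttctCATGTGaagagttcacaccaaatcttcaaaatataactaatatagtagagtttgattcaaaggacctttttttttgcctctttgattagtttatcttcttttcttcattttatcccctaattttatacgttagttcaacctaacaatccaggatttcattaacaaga
OPI3: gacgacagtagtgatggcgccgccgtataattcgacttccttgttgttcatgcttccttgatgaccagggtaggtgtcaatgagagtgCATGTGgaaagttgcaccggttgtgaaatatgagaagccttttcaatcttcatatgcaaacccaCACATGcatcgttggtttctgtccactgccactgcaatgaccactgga

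The core CATGTG, searched on both strands within 300 bases before the start codon, was present in 15 of the 25 genes (60.0%), in 9 of the 12 called genes (75%) and in 6 of the 13 genes not called (46.2%). Of all 5738 genes with such a window, 415 (7.23%) held it. The window can reach into a neighbouring gene, and the motif was chosen after the values were seen. Because Ino2 and Ino4 are known to drive phospholipid synthesis genes, an excess over all genes followed from the choice of list. FAS1, ACC1 and OPI1 were the called genes without a match in these letters. A match is a description of sequence and not a measurement of binding.

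ITR1, the main myo-inositol transporter, stood at 112 scaled FPKM in GD2, against 400 in GD1 and 657 in GD3. The SD libraries had 75.2, 88.1 and 68.7 and the control 83.7. GD2 was thus near SD and the control, and GD1 and GD3 were above all 5 (log2 difference of GD2 from the mean of GD1 and GD3 -2.19 ± 0.31, SE; limma adjusted p = 0.0408). CHO1, phosphatidylserine synthase, stood at 70.9 in GD2, 239 in GD1 and 399 in GD3, with 62.2 to 75.2 in SD and 144 in the control. PSD1, the mitochondrial phosphatidylserine decarboxylase, stood at 42.6 in GD2, 112 in GD1 and 133 in GD3, with 34.8 to 39.0 in SD and 55.7 in the control. The methyltransferases that turn phosphatidylethanolamine into phosphatidylcholine fell as well. CHO2, which adds the first methyl group, stood at 16.3 in GD2, 50.7 in GD1 and 86.6 in GD3, and at 19.6 to 30.3 in SD and 32.4 in the control. OPI3, which adds the rest, stood at 387 in GD2, 862 in GD1 and 1404 in GD3, and at 812 to 836 in SD and 415 in the control.

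Of the choline salvage route HNM1 and CKI1 were called lower, and so was CDS1, of the shared precursor. HNM1, the choline transporter, stood at 38.5 scaled FPKM in GD2, 87.9 in GD1 and 161 in GD3, CKI1, choline kinase, at 31.6, with 70.3 in GD1 and 75.5 in GD3, and CDS1, which makes CDP-diacylglycerol, at 37.9, with 89.1 in GD1 and 178 in GD3. CDS1 lies on chromosome II. OPI1, the repressor of the group, was also lower, at 51.5 in GD2, 85.0 in GD1 and 94.4 in GD3. The deepest drop of the list was in a gene of fatty acid synthesis. ACC1, acetyl-CoA carboxylase, stood at 33.8 in GD2, 170 in GD1 and 183 in GD3, with 25.9 to 40.9 in SD and 18.8 in the control (-2.35 ± 0.27, SE; limma adjusted p = 0.0408). FAS1 and FAS2, the subunits of fatty acid synthase, stood at 67.1 and 127 in GD2, at 259 and 362 in GD1 and at 286 and 353 in GD3. Among the 13 genes not called, INO1, inositol-3-phosphate synthase, had 14.6 in GD2, 30.4 in GD1 and 76.6 in GD3 (limma adjusted p = 0.0750). INO2 and INO4, the activators, had 64.5 and 78.6 in GD2, 114 and 130 in GD1, and 95.9 and 142 in GD3 (limma adjusted p = 0.0593 and 0.0546). In 23 of the 25 genes GD2 was nearer to the SD mean than the mean of GD1 and GD3 was, compared with 58.7% of all rows.

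**Figure D4:**
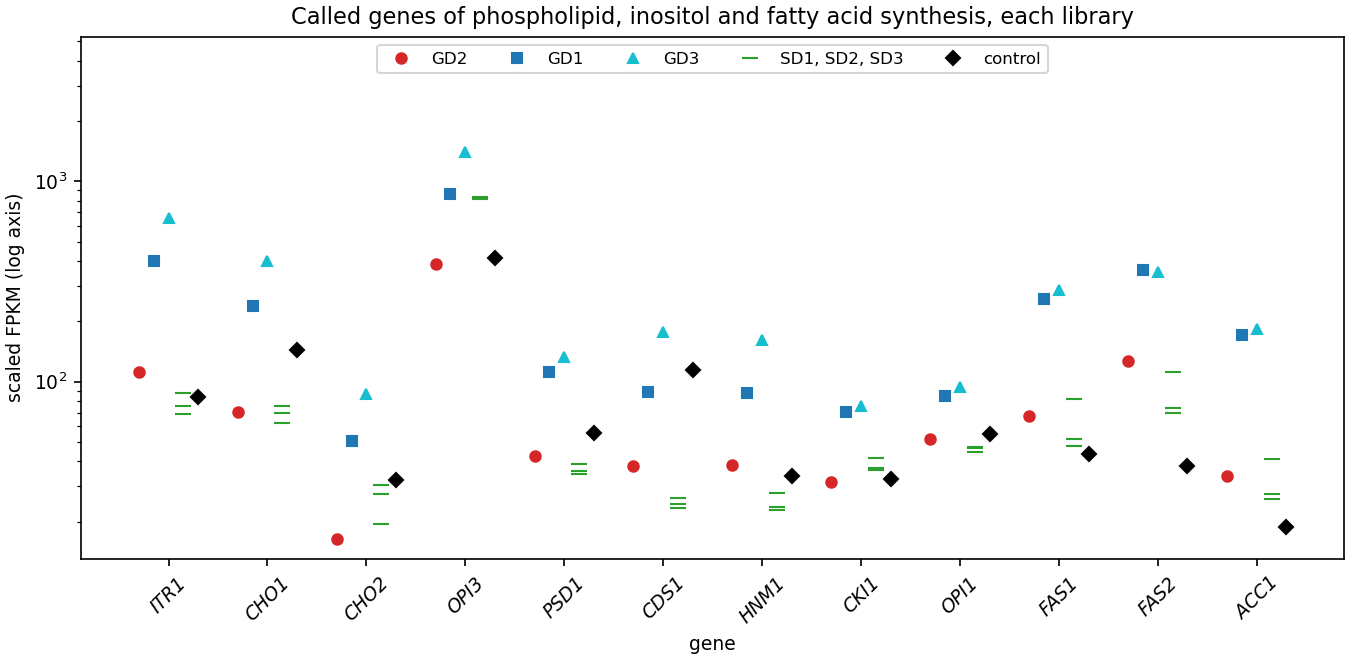
Scaled FPKM (log axis) of the 12 called genes of phospholipid, inositol and fatty acid synthesis in each library: GD2, GD1, GD3, the 3 SD libraries and the control. GD2 lies below GD1 and GD3 for each gene, at 112 against 400 and 657 for ITR1, and mostly near the SD libraries.

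Several genes of hexose phosphorylation and storage carbohydrate were called lower in GD2. HXK1, a hexokinase that is made when glucose is low, had the largest drop of any called row with a GD mean of 10 or more. It stood at 85.4 scaled FPKM in GD2, 595 in GD1 and 1038 in GD3, against 1741, 2536 and 2222 in SD1, SD2 and SD3 and 390 in the control (log2 difference -3.19 ± 0.40, SE; limma adjusted p = 0.0408). GD2 had the lowest value of the 7 libraries. EMI2, a glucokinase-like gene, followed with 24.8 in GD2, 91.6 in GD1 and 142 in GD3, and 127 to 218 in SD and the control. Of 19 genes of trehalose and glycogen, 6 were called lower (31.6%, against 4.37% of all rows) and none higher. The list median was -0.91 against GD1 and -0.61 against GD3. GSY1, a glycogen synthase, stood at 13.2 in GD2, 47.7 in GD1 and 39.2 in GD3. GPH1, glycogen phosphorylase, stood at 29.0 in GD2, 101 in GD1 and 113 in GD3. PGM2, phosphoglucomutase, stood at 40.7 in GD2, 113 in GD1 and 144 in GD3. The SD libraries were higher than all 3 GD libraries in these genes, at 73.1 to 95.4 for GSY1, 255 to 357 for GPH1 and 340 to 449 for PGM2. TPS1, UGP1 and TSL1, of trehalose and its precursor, were the other 3 called.

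Of 20 listed genes of glycolysis and fermentation, HXK1 alone passed the test, although most had their lowest GD level in GD2. EMI2 was not on that list. The median over 20 genes of glycolysis and fermentation was -0.72 against GD1 and -1.16 against GD3. Off chromosome II, the 1455 genes of the highest class of level had medians of -0.17 and -0.36. GD2 was below both in 17 of the 20, compared with 44.0% of all rows. Of the 20, 10 had an unadjusted p under 0.05, compared with 1939 of all 5899 rows. TDH3, glyceraldehyde-3-phosphate dehydrogenase, had 7641 scaled FPKM in GD2, 14358 in GD1 and 18158 in GD3 (limma adjusted p = 0.118). PGK1, phosphoglycerate kinase, had 722, with 1420 in GD1 and 2423 in GD3 (limma adjusted p = 0.0825).

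Several genes of the tricarboxylic acid cycle were lower in GD2. Of 27 genes of this and the glyoxylate cycle, 7 were called lower. LSC2, succinyl-CoA ligase, stood at 102 scaled FPKM in GD2, 248 in GD1 and 244 in GD3, and SDH1, the flavoprotein of succinate dehydrogenase, at 27.2, with 63.7 in GD1 and 83.1 in GD3. IDH1, of isocitrate dehydrogenase, stood at 84.2 in GD2, 160 in GD1 and 157 in GD3, and its call was lost with FPKM as deposited. Of 37 genes of the respiratory chain and ATP synthase, ATP1, ATP2 and CYT1 were called lower (8.11%). NDE2, an external NADH dehydrogenase, was called higher (2.70%). The shares over all rows were 4.37% lower and 3.46% higher. CYT1, cytochrome c1, stood at 134 in GD2, 298 in GD1 and 293 in GD3, and ATP2, the beta subunit, at 477, with 1057 in GD1 and 1017 in GD3. ATP1 and ATP2 were not called with FPKM as deposited.

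Mitochondrial ribosomal proteins gave the largest number of calls of any list. Of 68 genes, 23 were called lower, none higher and 45 were not called. GD2 was below both libraries in 66 of the 68, compared with 44.0% of all rows. The median was -0.59 against GD1 and -0.84 against GD3, and 3 genes were beyond 2-fold of both. MRPL31 stood at 75.3 scaled FPKM in GD2, 188 in GD1 and 212 in GD3, with 87.8 to 94.1 in SD and 153 in the control. MRPL19 stood at 53.4 in GD2, 109 in GD1 and 129 in GD3, and MRPL11 at 55.0, with 96.2 in GD1 and 108 in GD3. All 3 encode proteins of the large mitochondrial subunit. MRPL19 overlaps YNL184C, and the libraries' strand is not known, so reads of the pair cannot be told apart. Of the 68 genes 7 lie on chromosome II, and the list median without them was -0.67, against -0.71 with them. Mitochondrial chaperones were among the calls too: HSP60 stood at 122 in GD2, 289 in GD1 and 366 in GD3, and SSC1 at 279, with 590 in GD1 and 640 in GD3. With SBA1, a co-chaperone of Hsp90, they were the 3 of 26 heat shock and chaperone genes called lower (11.5%, against 4.37% of all rows). SSC1 and SBA1 were not called with FPKM as deposited.

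No cytosolic ribosomal protein gene was called by limma, although the medians of both subunits were below 0. Over 81 large-subunit genes the median was -0.29 against GD1 and -1.11 against GD3, and over 55 small-subunit genes -0.30 and -1.09. Off chromosome II, the 1455 genes with a GD mean of 126 to 5436 scaled FPKM had medians of -0.17 and -0.36. GD2 was below both libraries in 68 of the 81 and 42 of the 55, compared with 44.0% of all rows. The differences from GD3 were thus larger than those from GD1. Only 3 of the 81 and 2 of the 55 had an unadjusted p under 0.05, compared with 1939 of all 5899 rows. RPL3 had 1177 scaled FPKM in GD2, 1491 in GD1 and 2625 in GD3, with 546 to 909 in SD and 264 in the control (limma adjusted p = 0.306). For ribosome biogenesis genes the median over 94 genes was 0.17 against GD1 and 0.04 against GD3, with 1 called higher. Proteasome genes, with medians of -0.39 and -0.57 over 34 genes, had none called and 19 at an unadjusted p under 0.05, and GD2 was below both in 31.

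Several DNA replication and other G1 and S phase genes were lower in GD2. Of 48 genes, 6 were called lower (12.5%, against 4.37% of all rows) and 1, the cyclin gene PCL2, higher. GD2 was below both libraries in 43, compared with 44.0% of all rows (median -0.48 against GD1 and -0.65 against GD3). POL30, the sliding clamp PCNA, stood at 30.6 scaled FPKM in GD2, 125 in GD1 and 188 in GD3, with 8.40, 14.5 and 7.61 in SD and 131 in the control (-2.28 ± 0.39, SE; limma adjusted p = 0.0408). GD2 thus lay between SD and the other libraries. POL30 lies on chromosome II. CDC21, thymidylate synthase on chromosome XV, had the same pattern, at 24.5 in GD2, 80.2 in GD1 and 92.7 in GD3, with 6.01 to 10.3 in SD and 99.9 in the control. RFA1, of the single-strand binding complex, stood at 22.2 in GD2, 41.8 in GD1 and 47.3 in GD3. TOS4, RFA2 and WHI5 were the rest of the 6. IMD2, an IMP dehydrogenase of guanine nucleotide synthesis, was among the 12 deepest drops, at 16.1 in GD2, 51.4 in GD1 and 96.5 in GD3, with 3.51 to 4.94 in SD. Its reads can be shared with near-identical paralogs, so this value is uncertain. USB1, which trims U6 small nuclear RNA, stood at 9.84 in GD2, 33.8 in GD1 and 48.2 in GD3. A numbered row without a reference match completed the 12 deepest drops, at 11.1 in GD2, 50.2 in GD1 and 40.5 in GD3.

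Sulfur amino acid genes were the largest group of higher calls. Of 40 genes of methionine, cysteine and sulfate assimilation, 9 were called higher and 1 lower, and 13 were more than 2-fold above both GD1 and GD3. The list median was 0.58 against GD1 and 0.81 against GD3. Several of the 9 serve the reduction of sulfate. MET16, which reduces activated sulfate to sulfite, stood at 644 scaled FPKM in GD2, 176 in GD1 and 83.6 in GD3, with 478, 679 and 575 in SD and 117 in the control (2.40 ± 0.44, SE; limma adjusted p = 0.0427). GD2 lay within the SD range and above GD1, GD3 and the control. MET5, a subunit of sulfite reductase, stood at 91.6 in GD2, 26.0 in GD1 and 20.1 in GD3, and MET1, of the siroheme cofactor, at 116, with 30.6 in GD1 and 21.4 in GD3. MET22, the phosphatase that clears a by-product of sulfate reduction, stood at 453 in GD2, 201 in GD1 and 148 in GD3. YCT1, a cysteine transporter, stood at 102 in GD2, 30.0 in GD1 and 24.7 in GD3, with 106 to 165 in SD and 34.0 in the control. BDS1, a sulfatase, stood at 68.0 in GD2, 38.5 in GD1 and 31.7 in GD3. HOM3, JLP1 and STR2 were the other 3 called higher.

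The sulfur gene called lower was SAH1. SAH1, which breaks down S-adenosylhomocysteine, stood at 197 scaled FPKM in GD2, 574 in GD1 and 790 in GD3, with 107 to 140 in SD and 211 in the control (-1.77 ± 0.27, SE; limma adjusted p = 0.0408). SAM2, an S-adenosylmethionine synthetase, had 38.0 in GD2, 172 in GD1 and 335 in GD3, with 39.96 to 112 in SD and 75.5 in the control. It was beyond 2-fold of both and did not pass the test (limma adjusted p = 0.0560).

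Several genes of arginine and lysine synthesis were higher in GD2. Of 16 arginine genes, 3 were called higher and 1 lower, and 8 were more than 2-fold above both libraries (median 1.0 against GD1 and 1.58 against GD3). ARG56, which encodes consecutive enzymes of the ornithine branch, stood at 1077 scaled FPKM in GD2, 335 in GD1 and 135 in GD3, with 503, 413 and 401 in SD and 30.5 in the control (2.34 ± 0.50, SE; limma adjusted p = 0.0468). It was highest in GD2 of all 7 libraries. ARG2, the first enzyme of the branch, stood at 96.0 in GD2, with 44.9 in GD1 and 33.2 in GD3. ARG3, ornithine transcarbamylase, had 1278 in GD2, 383 in GD1 and 162 in GD3 and was not called (limma adjusted p = 0.0609). The gene called lower was CAR2, ornithine aminotransferase of arginine breakdown, at 13.7 in GD2, 33.1 in GD1 and 38.8 in GD3, with 47.7 to 62.6 in SD and 177 in the control. CAR1, arginase, had 22.4 in GD2, 32.8 in GD1 and 62.6 in GD3 and was not called (limma adjusted p = 0.110).

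All 9 lysine genes were above both GD1 and GD3 in GD2, and 3 were called (median 0.79 against GD1 and 1.08 against GD3). Over all rows, 38.1% lay above both. LYS4, homoaconitase, stood at 271 scaled FPKM in GD2, 123 in GD1 and 106 in GD3, and LYS12, homoisocitrate dehydrogenase, at 490, with 282 in GD1 and 279 in GD3. LYS9, saccharopine reductase, stood at 199 in GD2, 95.7 in GD1 and 112 in GD3 and was not called without GD1. The Gcn4 core TGACTC lay within 300 bases before the start codon of 3 of the 9 genes (33.3%), of 1 of the 3 called, LYS12, and of 458 of 5738 genes in all (7.98%), both strands being searched. Aromatic amino acid genes were above both libraries in 14 of 15 (median 0.65 against GD1 and 0.83 against GD3), none was called by limma and 11 had an unadjusted p under 0.05. LEU1, isopropylmalate isomerase of leucine synthesis, was called lower, at 695 in GD2, 1754 in GD1 and 1826 in GD3, while LEU3, its regulator, was called higher.

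**Figure D5:**
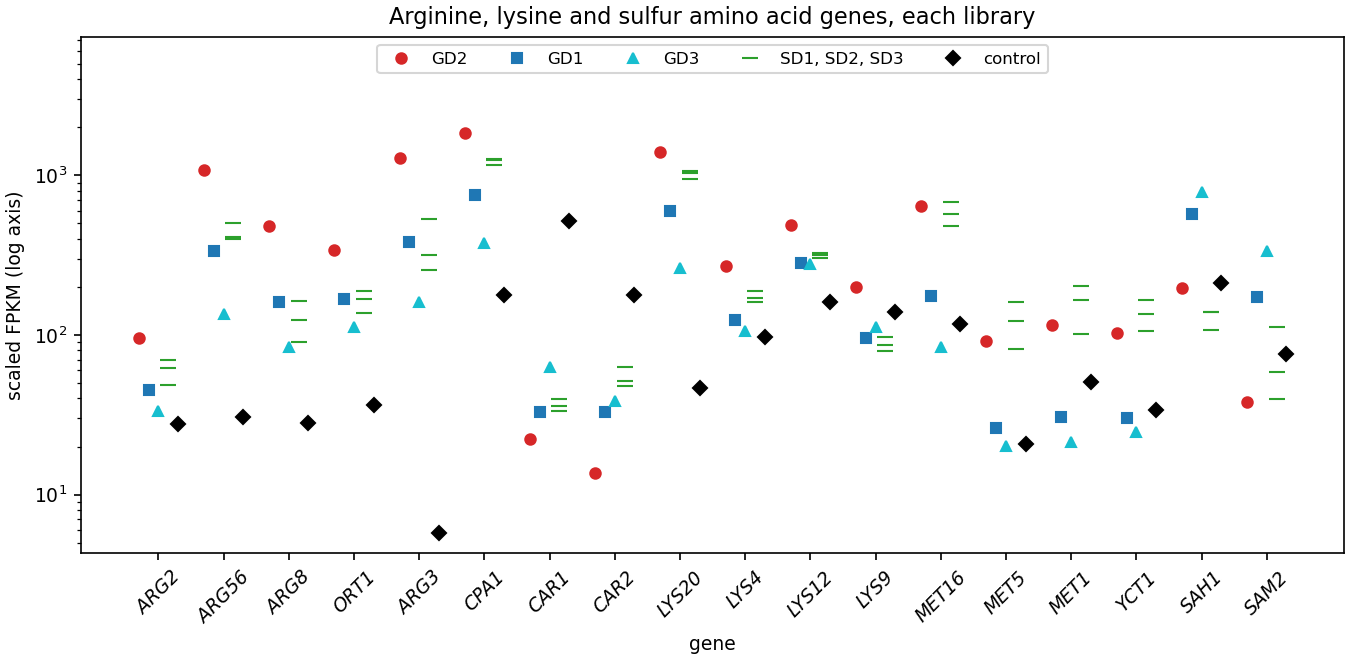
Scaled FPKM (log axis) of 18 genes of arginine, lysine and sulfur amino acid metabolism in each library: GD2, GD1, GD3, the 3 SD libraries and the control. GD2 is above GD1 and GD3 for the synthetic genes, at 1077 against 335 and 135 for ARG56, and below both for CAR1, CAR2, SAH1 and SAM2.

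Among uptake genes the calls were in the same direction. Of 20 permease and sensing genes, 3 were called higher and none lower. PTR2, the di- and tripeptide transporter, stood at 55.0 scaled FPKM in GD2, 18.9 in GD1 and 15.2 in GD3, with 40.5 to 47.7 in SD and 44.98 in the control. BAP3, a branched-chain amino acid permease, stood at 523 in GD2, 286 in GD1 and 276 in GD3, and STP2, a factor released by the amino acid sensor, at 244, with 118 in GD1 and 73.8 in GD3. NIT1, of the nitrilase family, stood at 427 in GD2, 105 in GD1 and 66.4 in GD3, and the adjacent YIL165C at 484, with 125 in GD1 and 74.9 in GD3. Both were also high in SD, at 217 to 330 and 286 to 400.

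Of 24 genes of thiamine and vitamin B6, 5 were called higher and none lower, with a median of 0.57 against GD1 and 0.47 against GD3. THI73, a predicted transporter, had the largest rise of any called row with a GD mean of 10 or more. It stood at 153 scaled FPKM in GD2, 27.2 in GD1 and 19.1 in GD3, against 119, 107 and 55.2 in SD1, SD2 and SD3 and 13.5 in the control (2.69 ± 0.46, SE; limma adjusted p = 0.0408). THI7, the thiamine transporter, stood at 372 in GD2, 120 in GD1 and 125 in GD3, and THI6, of thiamine phosphate synthesis, at 104, with 59.4 in GD1 and 53.8 in GD3. THI2, a transcription factor of the pathway on chromosome II, and BUD16, a pyridoxal kinase, were the other called genes. THI13, of the pyrimidine branch, had 8.68 in GD2, 8.70 in GD1 and 8.90 in GD3, but its reads can be shared with near-identical copies and this value is uncertain.

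Several genes of sporulation, the cell wall and stress were higher in GD2 as single genes, without a shift of their lists. Of 48 meiosis and sporulation genes 4 were called higher (8.33%, against 3.46% of all rows). The list median was 0.10 against GD1 and 0.20 against GD3. SPS100, of spore wall maturation, stood at 42.9 scaled FPKM in GD2, 5.80 in GD1 and 6.82 in GD3, with 299, 259 and 671 in SD and 11.5 in the control. It overlaps the noncoding transcript SUT169, which cannot be told apart here, and it was not called without GD1. SPO21, of the meiotic spindle pole, stood at 89.3 in GD2, 25.9 in GD1 and 10.8 in GD3. MND1, of meiotic recombination and not on that list, stood at 27.7 in GD2, 7.06 in GD1 and 2.23 in GD3 and at 22.6 to 29.6 in SD. ZIP2, of chromosome synapsis, stood at 25.4 in GD2, 11.95 in GD1 and 10.5 in GD3, and overlaps RME3. NDT80 was the fourth gene of the list called.

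Of 54 cell wall genes 3 were called higher (5.56%) and 1 lower (1.85%), shares near those over all rows (3.46% and 4.37%), so the genes below are single calls and not a result about the list. SCW4, a glucanase-like wall protein, stood at 478 scaled FPKM in GD2, 161 in GD1 and 185 in GD3, with 113 to 125 in SD and 115 in the control, so GD2 was above all others. SLT2, the kinase of the wall integrity pathway, stood at 321 in GD2, 139 in GD1 and 82.2 in GD3, with 265 to 309 in SD. PIR3, a wall glycoprotein, stood at 328 in GD2, 119 in GD1 and 94.2 in GD3, with 1761 to 2620 in SD and 83.2 in the control. Of 45 genes induced in the general stress response, PHM8, HSP32, SDP1 and FMP16 were called higher (8.89%) and GRE3 lower (2.22%). The shares over all rows were 3.46% and 4.37%, and these too are named as single calls. PHM8, a nucleotide phosphatase, stood at 356 in GD2, 174 in GD1 and 157 in GD3, with 673 to 718 in SD. SDP1, a MAP kinase phosphatase, stood at 26.2 in GD2, 9.32 in GD1 and 12.3 in GD3. HSP32 stood at 31.3 in GD2, 10.8 in GD1 and 7.08 in GD3 and has near-identical paralogs, so its value is uncertain. The remaining rows of the 12 largest rises were PRR2, a kinase gene (69.0 in GD2, 18.1 in GD1 and 7.94 in GD3), BSC5 (86.4, with 22.9 in GD1 and 10.6 in GD3), YOR186W (33.8, with 7.37 in GD1 and 5.54 in GD3) and IRC13 (23.9, with 6.08 in GD1 and 2.71 in GD3). IRC13 overlaps the small nucleolar RNA gene SNR17A and cannot be told apart from it.

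Of the mating-type genes 1 was called. MF(ALPHA)2, the minor alpha-factor gene, was lower, at 377 scaled FPKM in GD2, 1804 in GD1 and 1567 in GD3, with 126, 79.4 and 92.3 in SD and 1014 in the control (-2.15 ± 0.30, SE; limma adjusted p = 0.0408). Reads can be shared with MF(ALPHA)1. The other 3 alpha-specific genes were also below both libraries and none was called. STE3, the a-factor receptor, had 326 in GD2, 377 in GD1 and 353 in GD3, and SAG1, of alpha-agglutinin, 253, with 396 in GD1 and 342 in GD3. All 7 a-specific genes were above both GD1 and GD3 in GD2, with none called by limma and 3 at an unadjusted p under 0.05. Over all rows, 38.1% lay above both and 44.0% below both, and 1939 of 5899 had an unadjusted p under 0.05. STE2, the alpha-factor receptor, had 19.99 in GD2, 10.1 in GD1 and 5.91 in GD3, and AGA2 35.9, with 29.0 in GD1 and 7.49 in GD3. BAR1 had 9.65, with 6.67 in GD1 and 7.12 in GD3, MFA2 20.9, with 16.1 in GD1 and 6.27 in GD3, STE6 17.9, with 11.99 in GD1 and 7.58 in GD3, and ASG7 13.3, with 8.56 in GD1 and 7.01 in GD3.

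Of 7 genes often used as markers in strain construction, HIS3 alone was called. HIS3, of histidine synthesis, stood at 15332 scaled FPKM in GD2, 5090 in GD1 and 4905 in GD3, against 4671, 4408 and 5178 in SD and 165 in the control (1.62 ± 0.31, SE; limma adjusted p = 0.0430). GD2 was above the other 6 libraries, and the control was below the rest. URA3, of uracil synthesis, had 1232 in GD2, 1166 in GD1 and 1567 in GD3. ADE2, of adenine synthesis, had 194 in GD2 and 194 in GD1, against 560 in GD3. LYP1, the lysine permease gene, had 211, with 151 in GD1 and 129 in GD3, and CAN1, the arginine permease gene, 152, with 95.3 in GD1 and 96.7 in GD3. TRP1 had 150, with 95.1 in GD1 and 123 in GD3, and MET17 833, with 443 in GD1 and 344 in GD3, and MET17 overlaps YLR302C.

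The essential genes of chromosome III, which the series is about, gave no call between GD2 and the mean of GD1 and GD3. None of 13 was called by limma, and 4 had an unadjusted p under 0.05, compared with 1939 of all 5899 rows. Their median was -0.06 against GD1 and -0.08 against GD3. The single values ran from -1.36, for PGK1, to 0.57. The table matched 15 chromosome III genes in all, and their median was -0.02 against GD1 and 0.06 against GD3. Lists with medians within 0.1 of 0 against the mean of GD1 and GD3 included iron uptake (34 genes, 1 called), phosphate acquisition (27 genes, 2 called) and multidrug transporters (22 genes, none called and 9 at an unadjusted p under 0.05).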

How the data were processed

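Transcript levels of GD2, GD1 and GD3 were compared in a table of 7 libraries; the second table of the series was not used here. Per the file headers the deposited unit is FPKM; the submitters' processing notes name RSEM, Bowtie2, BWA and the build R64, without versions or roles. How reads of synthetic and wild-type copies were assigned, and whether strand was kept, is stated neither in the labels nor in the headers. Of 5936 rows, 5774 matched R64 gene numbers in the RefSeq annotation, which gave names and coordinates, and 162 did not. Matching was checked by the start codon, which was ATG for 99.9% of genes.

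FPKM were scaled by median-of-ratios factors, rows with a mean under 1 FPKM were left out, and log2(FPKM + 1) was fitted with limma 3.58.1 in R 4.3.3 (trend and robust empirical Bayes, means for GD2, for GD1 with GD3, for SD and for the control, 3 residual degrees of freedom, Benjamini-Hochberg adjustment at 0.05 over 5899 rows). The script was tested on simulated data. The scale understates changes of low genes. SE is that of the fitted difference.

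The members, gene lists and motifs were chosen with earlier results of these data known. A gene put in the thiamine list by mistake was removed after the values were seen. Named by rule were called genes with a GD mean of 10 or more and GD2 beyond both libraries: the 12 highest and 12 lowest differences, 3 of each list with 3 or more called in 1 direction, the 4 lowest p on chromosome II, and the mating-type and marker genes. Values of some genes that the rule names are not reported here. Other genes were named after their values were seen, as steps of a list. Alternatives were the scaling, pseudocount, filter, libraries in the fit, empirical Bayes settings, each library left out and, added after seeing the data, a replicate block. Python 3.11.15, pandas 2.3.3 and matplotlib 3.10.9 were used for the rest.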

Additional observations from a re-analysis of the deposited data

How the results depend on the processing

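Every one of the 462 called rows kept its sign in the settings tried, 457 of them being tested at a minimum mean of 10 FPKM. In all 462 GD2 lay above both or below both of GD1 and GD3. Only the scaling and the replicate block could therefore have changed a sign, and under the other settings it was fixed in advance. The calls themselves depended on the libraries. With only the 3 GD libraries, limma called 0 rows higher and 0 lower (1299 at an unadjusted p under 0.05), a fit with 1 residual degree of freedom. Leaving out 1 library gave 0 to 450 rows higher and 0 to 582 lower. With FPKM as deposited, 121 rows were called lower, against 258. The counts of rows beyond 2-fold of both libraries became 484 higher and 547 lower at 1.5-fold, and 9 higher and 4 lower at 4-fold. Under the other settings without a block the counts stayed within 1.5 times. The chromosome II median ran from -0.54 (without GD1) to -0.24 (FPKM as deposited). Of lists with a median at least 0.1 from 0, 4 turned round without a block: with each library left out in turn, purine synthesis (-0.41) ran from -0.84 to 0.09, biotin (0.12) from -0.02 to 0.26, seripauperin genes (-0.16) from -0.26 to 0.04 and DUP380 genes (0.11) from -0.10 to 0.22, the last also at -0.06 with a minimum of 10 FPKM. The cause was not tested. Of the 71 named genes called, 66 kept the call with FPKM as deposited and 64 without trend and robust estimates. All 71 lost it without SD1, without SD3 and with only the 3 GD libraries, and 70 lost it without SD2. GD and SD share the numbers 1 to 3, and a fit with a replicate block, added after seeing the data, sets GD2 against GD1 and GD3 relative to SD2 against SD1 and SD3, with 1 residual degree of freedom. With the block limma called 0 rows higher and 0 lower (1124 at an unadjusted p under 0.05), the chromosome II median was -0.40, and the medians of oxidative stress defence (-0.17), histones (-0.27) and alpha-specific genes (-0.60) became 0.01, 0.07 and 0.15. Nothing in the labels pairs equal numbers, and the deviations of same-numbered libraries from their group means had correlations across rows of -0.129, -0.179 and -0.167. Depth is unknown, so it is not known which low rows it limits.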

Other observations

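Single genes of heme and lipid metabolism outside the groups above were also called lower. HEM13, coproporphyrinogen oxidase, was the 1 of 21 hypoxic and heme-repressed genes called (4.76%, list median -0.02). It stood at 65.0 scaled FPKM in GD2, 150 in GD1 and 286 in GD3, with 47.9 to 58.0 in SD and 143 in the control (log2 difference -1.66 ± 0.36, SE; limma adjusted p = 0.0474). FAA1, an acyl-CoA synthetase, was the 1 called lower (3.33%) of 30 genes of the peroxisome and fatty acid oxidation, of which 1 was called higher (list median 0.20). It stood at 80.6 in GD2, 167 in GD1 and 158 in GD3. Both shares called lower were near the 4.37% over all rows. HEM13 and FAA1 are thus single calls and not a result about their lists. Of 26 genes of ergosterol and mevalonate, 4 were called lower (15.4%, against 4.37% of all rows) and 1, ERG7, higher. ERG6 stood at 141 in GD2, 313 in GD1 and 373 in GD3, ERG20 at 248, with 514 in GD1 and 551 in GD3, and ERG28 at 74.8, with 164 in GD1 and 188 in GD3. ERG11, the target of azoles, had 309 in GD2, 215 in GD1 and 256 in GD3 and was not called (limma adjusted p = 0.215).

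Chromatin and redox genes gave single calls. HHO1, the linker histone, stood at 89.5 scaled FPKM in GD2, 229 in GD1 and 296 in GD3, and HTZ1, the H2A.Z variant, at 115, with 198 in GD1 and 227 in GD3. They were the 2 of 10 histone genes called, both lower. ADH2, the alcohol dehydrogenase that is repressed by glucose, was higher, at 118 in GD2, 49.3 in GD1 and 34.8 in GD3, and SRX1, sulfiredoxin, stood at 58.1, with 26.7 in GD1 and 19.1 in GD3. Of 19 alcohol and aldehyde dehydrogenases, ADH2 and ALD5 were called higher (10.5%) and ACS2 lower (5.26%), with a list median of -0.03. Of 27 oxidative stress defence genes, SRX1 and ATR1 were called higher (7.41%) and PRX1 lower (3.70%), with a list median of -0.17. The shares over all rows were 3.46% higher and 4.37% lower.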
